A study of Mus musculus with 16 samples.

Results

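The genes described here encode the proteins of the cytosolic ribosome. They were taken by symbol, not by any measured value: a gene was a member when its symbol had the form Rpl or Rps with a number, with or without one of the endings a, x, l or l1, or was Rplp0, Rplp1, Rplp2 or Rpsa. This gave 83 of the 24063 genes of the deposited tables, 51 of the large subunit and 32 of the small subunit. A ribosomal protein joins ribosomal RNA in the nucleolus, and most of these proteins are needed in equal number for each ribosome. Their mRNAs are short, abundant and usually begin with a C followed by a run of pyrimidines, the terminal oligopyrimidine tract through which the mTOR pathway controls their translation. Endocrine pituitary cells, which make large amounts of secreted hormone, carry a heavy load of translation.

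The study used AtT-20 cells, a mouse pituitary corticotrope tumour line, to follow Pax7, a paired-box transcription factor that marks the melanotrope lineage. Cells expressing 3x flag-Pax7 (2 libraries) were set against cells expressing 3x flag-Neo (2 libraries), all non treated. In a time course, cells expressing 3x flag-ER-Pax7 were non treated (0 h) or given 4-hydroxy-Tamoxifen for 12, 24 or 96 h (3 libraries per time). Total RNA was depleted of ribosomal RNA and sequenced. All cultures were at passages 10-20 in serum. No library of these groups had 4-hydroxy-Tamoxifen without ER-Pax7, so the drug, the time in culture and the activity of ER-Pax7 cannot be told apart in the time course. Nothing in the labels says that replicates came from separate cultures or that a line was 1 clone or several, so the p-values measure the spread between these libraries, which may be technical.

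The 12 ER-Pax7 libraries held 61374367 to 88698036 reads on exons, recovered from the steps in their values. The depth of the Neo and Pax7 libraries, deposited as FPKM (fragments per kilobase, scaled to the library's total) over whole gene bodies, introns included, is unknown. Pax7 itself was higher in the Pax7 libraries with a log2 fold of 4.53 (SE 0.07; adjusted p = 7.43e-04 by limma). All 6 corticotrope markers were detected in every group, with a summed level of 2317 to 2465 FPKM in Pax7 and 2524 to 2531 FPKM in Neo cells. The summed FPKM of 5 immune markers was 0.316 to 0.428 in Pax7 and 0.171 to 0.177 in Neo cells, with Ptprc, Cd3e and Itgam listed at 0 in both. That of 4 fibroblast markers was 0.230 to 0.298 in Pax7 and 0.242 to 0.250 in Neo cells, and that of 3 endothelial markers 0.0298 to 0.0383 in Pax7 and 0.0302 to 0.0313 in Neo cells. Ribosomal RNA precursor left after depletion, read as Rn45s, took 2.35% of the reads in replicate 2 of 12 h and 0.753% to 1.26% in the other ER-Pax7 libraries.

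Ribosomal protein mRNAs were abundant in these cells. At 0 h the 80 members that passed the filter on low values had a median of 2947 scaled exon reads per kilobase of exon, against a median of 66.1 for all 15188 genes tested. Among the highest per kilobase were the stalk protein Rplp2, at 9919 ± 803, and Rps21, at 9918 ± 909 (SD, n = 3 each), which do not differ beyond their spread. Among members of the common ribosome the lowest per kilobase were Rps15a, at 445, and Rpl22, at 461 scaled reads per kilobase. Their annotated exons are long, 5127 and 2352 bases against a median of 704 for the members. A value per kilobase may therefore understate these 2 genes. Rpl7l1, a relative of Rpl7, lay below both genes at 184, and Rpl3l, the copy used in heart and skeletal muscle, at 1.00. The tissue-restricted copies were nearly silent: Rpl10l and Rpl39l, known from testis, had no read in any of the 12 ER-Pax7 libraries, which allows up to 3 reads a library by counting error, and Rps4l had 0 to 2. Those 3 failed the filter in both tables and were not tested. Rpl3l rested on 3 to 20 reads a library, and the other 79 tested members on 2651 to 126315. Many members have processed pseudogenes, and how reads that match several loci were placed is not given in the sources used here, so levels of single members carry that uncertainty.

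The starts of 8 of these genes are shown because the results below turn on them: Rpl35a, Rpl13a, Rpl24, Rpl22 and Rpl15 fell in Pax7 cells, while Rpl14, Rpl22l1 and Rpl10 did not pass the test there. Each sequence holds the 50 bases before the RefSeq start and the first 25 bases of the gene, 5′ to 3′ on the gene's own strand, from RefSeq on GRCm38.p6, the build of the deposited coordinates. The positions are chr16:33056432-33056506 (Rpl35a, plus strand), chr7:45128721-45128795 (Rpl13a, minus), chr16:55966225-55966299 (Rpl24, plus), chr4:152325676-152325750 (Rpl22, plus), chr14:18270962-18271036 (Rpl15, minus), chr9:120571467-120571541 (Rpl14, plus), chr3:28805458-28805532 (Rpl22l1, plus) and chrX:74270766-74270840 (Rpl10, plus). Capitals mark the longest run of C and T that begins with a C within 20 bases of the start.
Rpl35a: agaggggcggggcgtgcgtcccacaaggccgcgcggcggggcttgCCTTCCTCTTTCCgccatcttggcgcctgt
Rpl13a: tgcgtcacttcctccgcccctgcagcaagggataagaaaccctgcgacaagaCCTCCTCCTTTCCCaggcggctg
Rpl24: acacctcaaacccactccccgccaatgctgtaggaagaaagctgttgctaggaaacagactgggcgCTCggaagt
Rpl22: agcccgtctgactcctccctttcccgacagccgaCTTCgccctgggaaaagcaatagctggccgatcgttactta
Rpl15: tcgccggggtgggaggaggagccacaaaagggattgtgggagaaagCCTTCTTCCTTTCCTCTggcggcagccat
Rpl14: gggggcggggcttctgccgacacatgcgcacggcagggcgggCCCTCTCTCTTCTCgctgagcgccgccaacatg
Rpl22l1: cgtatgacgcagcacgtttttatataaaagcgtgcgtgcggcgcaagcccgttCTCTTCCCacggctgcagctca
Rpl10: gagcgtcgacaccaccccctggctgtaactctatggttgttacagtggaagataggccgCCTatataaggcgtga

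Rpl15 carried the longest of these runs, 17 bases, and Rpl13a and Rpl14 had 14 bases each, so a long tract stood both in genes that fell and in one that did not pass the test. Rpl24, with a run of 3 bases within 20 bases of the start, and Rpl22, with 4, fell. Rpl10, also with 3, did not pass. The printed Rpl22 sequence holds a longer run of C and T farther before the annotated start, which was not counted. A short marked run therefore depends on the annotated start. RefSeq promoters were matched for 62 of the 83 members. A C with at least 6 pyrimidines after it, beginning within 20 bases of the start, was found in 35 of the 62 (56.5%) and in 21.1% of all 27025 promoters. A C exactly at the annotated start with at least 4 pyrimidines after it was found in 21.0% of the members and in 2.49% of all promoters. In the 300 bases from 250 before to 50 after the start, searched on both strands, the ETS core CCGGAAG occurred in 38.7% of members and 9.12% of all promoters. The SP1 box GGGCGG occurred in 61.3% and 35.9%, the YY1 core AAGATGG in 14.5% and 6.48%, the E-box CACGTG in 8.06% and 7.24%, and the TATA box TATAAA in 9.68% and 14.2%. None of these motifs contains another. Among the 53 matched members that fell in Pax7 cells the long tract stood in 58.5% and the ETS core in 39.6%, against 3 and 2 of the 7 matched members that did not pass the test. The SP1 box stood in 60.4% of those that fell and in 5 of the 7, and the YY1 core in 13.2% and in 2 of the 7. A match describes letters in a window and is not a site.

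Constant expression of Pax7 went with lower gene-body levels of ribosomal protein genes across both subunits. These levels count introns, and a median of 73.6% of a member's gene body lies outside exons. They are therefore not levels of the spliced mRNA alone. In Pax7 against Neo cells, 72 of the 80 tested members fell and none rose at a limma adjusted p under 0.05, where 18.2% of the 13393 genes tested were called lower and 18.5% higher. The median log2 fold of the members was -0.30, against 0.01 for all genes tested, and the folds ranged from -0.56 to 0.11, or to 0.26 with Rpl3l, which reached the filter of 0.1 FPKM in 2 libraries only through the Pax7 cells. Small subunit genes (29 of 31 fell, median -0.29) and large subunit genes (43 of 49 fell, median -0.30) had nearly the same median. In 77 members both Pax7 libraries were below both Neo libraries and in 3, Rpl3l among them, both were above, where 36.1% and 37.8% of all genes tested did so. The summed gene-body reads of the members were 2.64% and 2.69% of the total in the Pax7 libraries, against 3.26% and 3.38% in the Neo libraries. The count rested on both Pax7 libraries: 26 were called lower without replicate 1 of Pax7 and 35 without replicate 2. In bulk RNA, fewer cells of a type and less RNA per cell cannot be told apart, and each library's values are relative to its total.

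**Figure D1:**
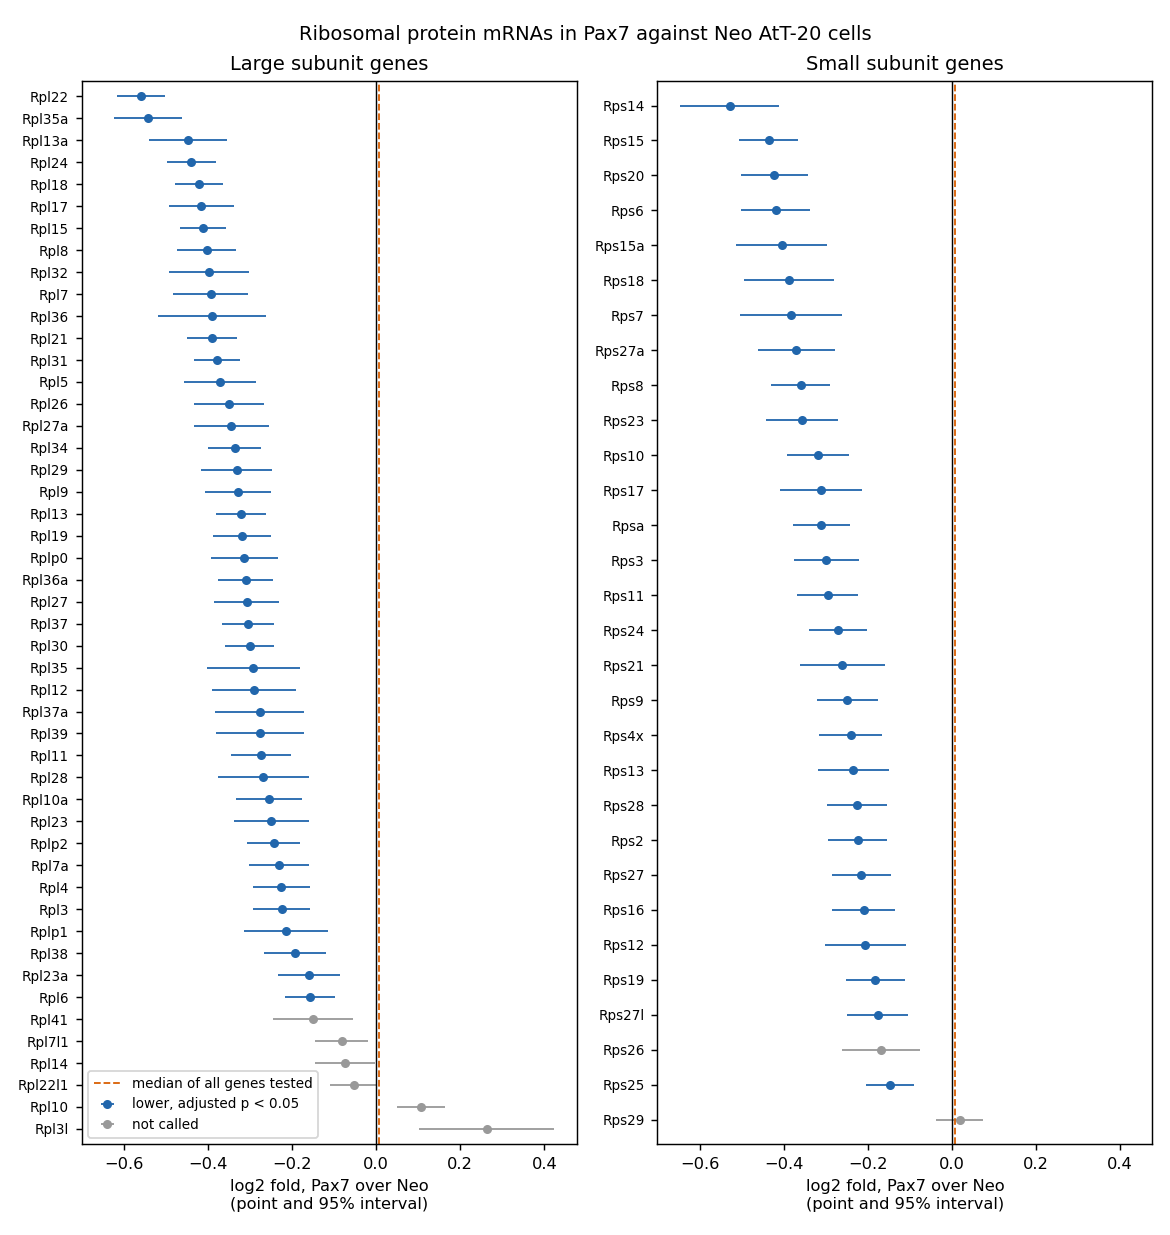
Log2 fold of tested ribosomal protein genes in Pax7 over Neo cells, for the large subunit (left) and the small subunit (right). Bars are 95% intervals by a normal approximation from the limma SE. They are narrower than intervals of limma's t test, so whether a bar reaches 0 is not the test result. Blue genes passed an adjusted p of 0.05, grey ones did not, and the dashed line is the median of all 13393 genes tested. Of the genes shown, Rps29, Rpl10 and Rpl3l lie right of 0 and the others left of it. Rpl3l reached the filter only through the Pax7 cells.

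The lowest fold was that of Rpl22, a large subunit protein that also binds other RNAs and that knockout mice can live without. Its gene-body level, in FPKM divided by the library's scaling factor, was 17.6 and 17.7 in Pax7 cells, against 25.7 and 26.4 in Neo cells. The Pax7 libraries were nearly equal and both lay well below the Neo libraries. Rpl22 had a log2 fold of -0.56 (SE 0.03; adjusted p = 0.00256 by limma), so its level fell by 32.1%; falls below are in log2 units. Rpl35a, a large subunit protein whose loss causes Diamond-Blackfan anaemia in humans, had 44.7 and 45.2 FPKM in Pax7 cells, against 63.5 and 67.5 in Neo cells. It fell by 0.54 (SE 0.04, limma adjusted p = 0.00458), and its groups also stood apart. Rps14, the small subunit protein whose haploinsufficiency underlies the human 5q- syndrome, had 109.6 and 117 FPKM in Pax7 cells, against 157 and 170.4 in Neo cells. It fell by 0.53 (SE 0.06, limma adjusted p = 0.0086), again with no overlap.

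Next came Rpl13a, which can also leave the ribosome to block translation of inflammatory mRNAs, at 193 and 197 FPKM in Pax7 cells, against 257 and 275 in Neo cells. Rpl24, which forms a bridge between the subunits, fell by 0.44 and Rps15, which acts in the export of the small subunit, by 0.44 as well. Folds of other members with roles outside the bulk of the ribosome lay within the same range. Rps6, the substrate of the S6 kinases downstream of mTOR, fell by 0.42 (SE 0.04). Rpl5 and Rpl11, which with 5S RNA bind Mdm2, fell by 0.37 and 0.27. Rpsa, also known as the laminin receptor, fell by 0.31, and Rps19, the gene most often mutated in Diamond-Blackfan anaemia, by 0.18.

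The ribosomal stalk, formed by Rplp0 with Rplp1 and Rplp2, recruits elongation factors to the large subunit. Rplp0 had 279.6 and 292 FPKM in Pax7 cells, against 349.7 and 360.5 in Neo cells, and fell by 0.31 (SE 0.04, limma adjusted p = 0.0112). Rplp2 fell by 0.24 (SE 0.03) and Rplp1 by 0.21 (SE 0.05, limma adjusted p = 0.0409). All 3 stalk genes therefore shifted in the direction of the set, and the fall of Rplp1 was the one nearest the threshold.

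**Figure D2:**
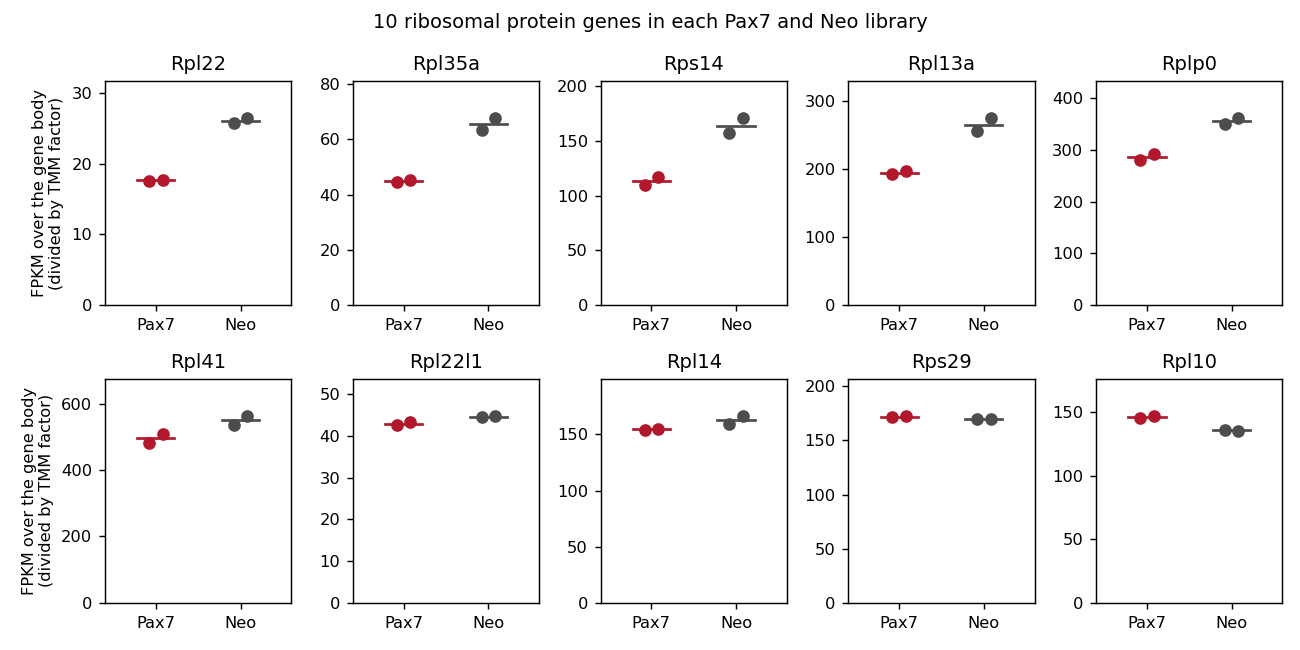
Gene-body FPKM, divided by the TMM scaling factor, of 10 ribosomal protein genes in each Pax7 (red) and Neo (grey) library; each point is 1 library and each line the mean of 2. Both Pax7 points lie below both Neo points for Rpl22, Rpl35a, Rps14, Rpl13a, Rplp0, Rpl41, Rpl22l1 and Rpl14, and above them for Rps29 and Rpl10.

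The 8 members that were not called were Rps26, Rpl41, Rpl7l1, Rpl14, Rpl22l1, Rps29, Rpl10 and Rpl3l. Rpl10, an X-linked protein that joins the large subunit last in its assembly, had 145 and 147 FPKM in Pax7 cells, against 136 and 135 in Neo cells. Its log2 fold was 0.11 (SE 0.03, limma adjusted p = 0.054), with all Pax7 values above all Neo values, and it lay more than 3 scaled median absolute deviations above the median of the members. Rpl10 passed the test under scaling by library totals, with a log2 fold of 0.18, and with a pseudocount of 0.01 FPKM. Library totals also raised the median log2 fold of all genes tested, to 0.070 against 0.007. Rps29, a small zinc-binding protein of the small subunit, had 171.7 and 172.5 FPKM in Pax7 cells, against 169.9 and 169.9 in Neo cells. Its log2 fold was 0.02, with a 95% interval by a normal approximation of -0.04 to 0.07, which lies above the median of the members. Rpl14, part of the large subunit, had a log2 fold of -0.07 (SE 0.04, limma adjusted p = 0.186), and Rpl41, the shortest ribosomal protein, one of -0.15 (SE 0.05, limma adjusted p = 0.0789). Rpl3l, at 0.11 and 0.12 FPKM in Pax7 against 0.08 and 0.07 in Neo cells, had a log2 fold of 0.26 on values near the pseudocount of 0.1 FPKM. Only its Pax7 values reached the filter. Rpl3l is kept in the counts of members in the fit, but its test result is not used. Rps26 had a log2 fold of -0.17 (limma adjusted p = 0.0583) and Rpl7l1 one of -0.08 (limma adjusted p = 0.116).

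Several members have a related gene copy, and some of these copies can take their place in the ribosome. Rpl22l1, the copy of Rpl22, had 42.6 and 43.5 FPKM in Pax7 cells, against 44.5 and 44.8 in Neo cells. Its log2 fold of -0.05 (SE 0.03, limma adjusted p = 0.205) did not pass the test, and it was 0.02 under scaling by library totals. The log2 difference in FPKM between Rpl22l1 and Rpl22, which no scaling of a library changes beyond the pseudocount, was 1.28 ± 0.02 in Pax7 and 0.78 ± 0.02 in Neo cells (SD, n = 2 each). The change in this balance was larger than the spread between libraries, although 2 against 2 libraries cannot give an exact two-sided permutation p below 0.333. For Rpl7l1 over Rpl7 the log2 difference was -4.44 ± 0.06 in Pax7 and -4.75 ± 0.08 in Neo cells, again apart. For Rps27l over Rps27, whose copies fell by 0.18 and 0.22, it was -0.76 ± 0.08 in Pax7 and -0.80 ± 0.02 in Neo cells and did not differ beyond the spread. Rpl3 fell by 0.23, Rpl39 by 0.28 and Rps4x by 0.24, and their copies Rpl3l, Rpl39l and Rps4l were near or below detection.

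Since FPKM counted introns, members with small nucleolar RNA genes in their introns were looked at apart. Of the 21 members with such genes listed inside them in the deposited annotation, 30 in all, 20 fell with a median log2 fold of -0.29. Of the 59 tested members with none listed, 52 fell with a median of -0.31. A member with none listed may still host one, so the split is of listed genes only. Rpl13a, with 4 such genes inside, is described above. Across the 79 tested members other than Rpl3l, the log2 fold in Pax7 cells had Pearson's r of 0.14 with the log2 level per kilobase at 0 h, -0.18 with exon length and 0.03 with the share of the gene body outside exons, all weak. These are descriptions across genes, which are not independent replicates.

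Ribosomal proteins or ribosome-bound proteins outside the symbol rule shifted in the direction of the members: of 5, 4 fell, with a median log2 fold of -0.25. They included Gnb2l1, which encodes the ribosome-bound scaffold RACK1, by 0.33 (SE 0.04), Fau by 0.32 (SE 0.05) and Rps3a1 by 0.25. The other lists of translation machinery genes had medians nearer to 0. Of 16 elongation factors and other terminal oligopyrimidine mRNAs, 9 fell (56.3%) and none rose, with a median of -0.16, among them Eef1g by 0.32 and Eef1b2 by 0.24. Of 24 initiation factors 8 fell (33.3%) and none rose, with a median of -0.08. Mitochondrial ribosomal proteins are encoded by separate nuclear genes and build another ribosome. Of 74, 25 fell (33.8%) and 4 rose (5.41%), with a median of -0.09, where Mrpl24 fell by 0.37, while 10 were called lower under scaling by library totals or without replicate 2 of Pax7 and 12 without replicate 1. Of 34 genes for ribosome assembly and the nucleolus, 8 fell (23.5%) and 3 rose (8.82%), with a median of -0.05, where 18.2% of all genes tested were called lower and 18.5% higher.

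Small nucleolar RNA host genes are mostly non-coding, and their spliced RNAs also begin with pyrimidine tracts. Their FPKM counted introns too, so it is not a level of the spliced RNA alone. Of 8, 7 fell, with a median log2 fold of -0.53: Snhg5 by 0.89 (SE 0.04, limma adjusted p = 0.00225), Snhg12 by 0.74, Snhg8 by 0.66, Snhg6 by 0.65 and Gas5 by 0.41. Of 20 regulators of ribosomal protein synthesis, 3 fell and 2 rose, smaller shares than the 18.2% and 18.5% of all genes tested. Mycn, a transcription factor that drives ribosome genes, fell by 0.34, Sp1 by 0.32 and Gabpa, an ETS factor, by 0.19. Tsc2, an inhibitor of mTOR, rose by 0.50 (SE 0.04, limma adjusted p = 0.00516), and Eif4ebp1, a repressor of translation that mTOR inactivates, by 0.16. Larp1, which binds terminal oligopyrimidine mRNAs, had a log2 fold of 0.04 and did not pass the test.

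The Pax7 libraries had TMM scaling factors of 1.05 and 1.01, against 0.992 and 0.959 in the Neo libraries, so library totals alone give smaller falls, with 56 of 80 members called lower and a median of -0.23. The share of reads on Rn45s was 0.723% and 0.679% in Pax7, against 0.877% and 0.784% in Neo libraries, and its part in the result was not tested. Of the 72 calls, 24 held whichever library was left out and under every other setting run, Rpl22, Rpl35a, Rps14, Rpl13a, Rpl24, Rps15, Rps6, Rpl5 and Rpl15 among them. In the authors' deposited table, made with another test, 7 members had an FDR under 0.05 in this comparison, all with a negative log2 fold, of 24 such genes in all.

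In the ER-Pax7 time course the ribosomal protein mRNAs had medians close to 0 at 12 and 24 h. At 12 h against 0 h no member passed the test in either direction, where 6.49% of the 15188 genes tested did. The median log2 fold was -0.01, and 3 members had an unadjusted p under 0.05. Besides Rpl3l, the lowest log2 folds at 12 h were those of Rps14 (-0.11), Rpl10a (-0.10), Rpl41 (-0.09), Rpl15 (-0.08) and Rpl17 (-0.07), and the highest those of Rps16 (0.08), Rps9 (0.07), Rplp2 (0.05), Rps12 (0.05), Rps21 (0.04) and Rpl23 (0.03). At 24 h against 0 h none passed, where 13.5% of genes did, with a median of 0.01 and 1 member with an unadjusted p under 0.05. edgeR and DESeq2 on the recovered reads called 0 members at both times. At 24 h against 12 h none passed either, where 0.171% of genes did, and 3 had an unadjusted p under 0.05.

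At these times the members were spread more between libraries of 1 time than between times. The median deviation of the members from the 12-library mean was 0.06, -0.06 and 0.06 on the log2 scale in the 0 h libraries, 0.04, -0.12 and 0.07 at 12 h, -0.01, -0.06 and 0.12 at 24 h, and -0.06, -0.07 and 0.02 at 96 h. The lowest was replicate 2 of 12 h, the library with the high Rn45s share, and the highest was replicate 3 of 24 h. Farthest from the median of the members at 24 h were Rps16, with a log2 fold of 0.14 (SE 0.07, limma adjusted p = 0.237), and Rpl41, with -0.10 (SE 0.05, limma adjusted p = 0.196), besides the barely detected Rpl3l. The next lowest at 24 h were Rpl29 (-0.08), Rpl18 (-0.08), Rpl15 (-0.07) and Rpl6 (-0.05), and the next highest Rpl28 (0.08), Rpl19, Rps18, Rps27a and Rpl14 (0.06 each).

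**Figure D3:**
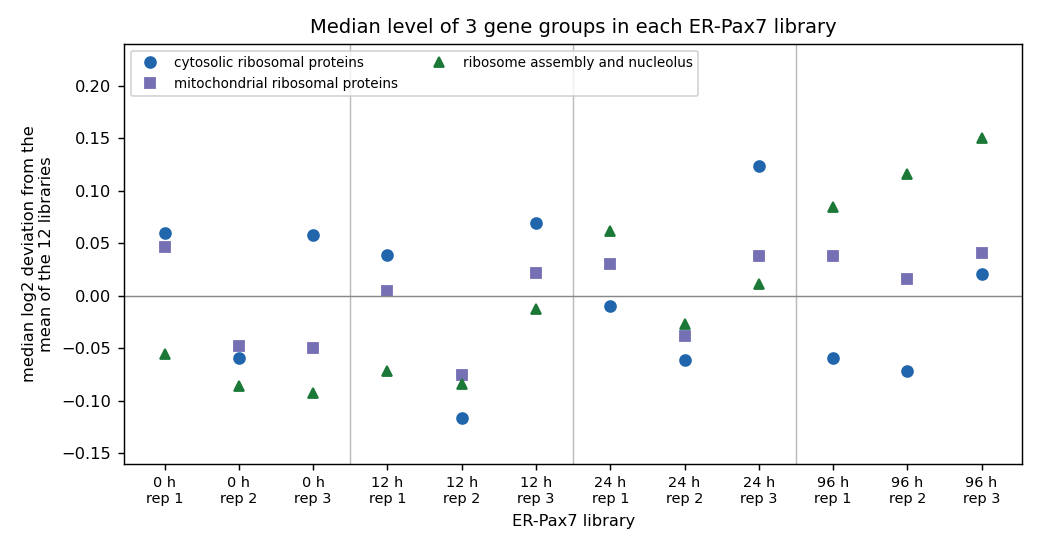
Median log2 deviation of 3 gene groups from the mean of the 12 ER-Pax7 libraries, for each library in order of time. The ribosomal protein medians (blue) overlap between the 4 times, from -0.12 to 0.12, while the medians of ribosome assembly genes (green) are higher in all 3 libraries at 96 h than in any library at 0 h.

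At 96 h a few members fell and the set leaned down by a small amount. Against 0 h, 10 of the 80 members fell (12.5%) and none rose, where 17.4% of all genes tested were called lower and 16.3% higher, so the share of members called lower was below the background. The median log2 fold was -0.05, against 0.00 for all genes, with 64 members below 0 and 16 above. This median is no larger than 0.06, the SD between libraries of the members' median level in these groups. Of the large subunit genes 8 of 49 fell, with a median of -0.07, and of the small subunit genes 2 of 31, with a median of -0.03.

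Rpl15, a large subunit protein needed for assembly of the subunit, had the smallest adjusted p. Its scaled exon reads were 1322, 1241 and 1231 at 0 h, 1220.3, 1161 and 1204 at 12 h, 1210.3, 1200.3 and 1211 at 24 h, and 1107, 1099.6 and 1119 at 96 h. The 96 h libraries were below all others and the 12 and 24 h libraries were below those at 0 h. At 96 h it fell by 0.19 against 0 h (SE 0.03, limma adjusted p = 2.22e-04). Rpl5, of the 5S RNA particle, had 2944, 2845 and 3137 scaled reads at 0 h, 3029.8, 2729.8 and 2983 at 12 h, 2934, 2728 and 3176 at 24 h, and 2525, 2553 and 2749.9 at 96 h. Its 96 h values lay below all 0 h values but overlapped those at 12 and 24 h, and it fell by 0.19 against 0 h (SE 0.05, limma adjusted p = 0.00762).

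Rpl41 had 3123, 2909.7 and 3176 scaled reads at 96 h, against 3604, 3374 and 3429 at 0 h. It fell by 0.18 (SE 0.05, limma adjusted p = 0.00826), without overlap between these times. Rps14 had 4376, 4079 and 3958 scaled reads at 96 h, against 5072, 4548 and 4370.1 at 0 h, and fell by 0.17 (SE 0.05, limma adjusted p = 0.0122), with 1 value at 96 h just above the lowest at 0 h. Rpl17 had a log2 fold of -0.14 and did not pass (limma adjusted p = 0.173). Among the others called were Rpl18, which fell by 0.15, Rpl22, by 0.13, Rpl24, by 0.12, Rps15 and Rpl7a. Only Rpl15 and Rpl5 passed whichever library was left out and under every other setting run. With a library left out, 4 to 12 members were called lower. The count was 4 without replicate 1 of 0 h, 5 without replicate 1 of 96 h and 4 without replicate 2 of 96 h. With the replicate number as a block 20 members were called lower, and 16 in a fit of these times alone.

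**Figure D4:**
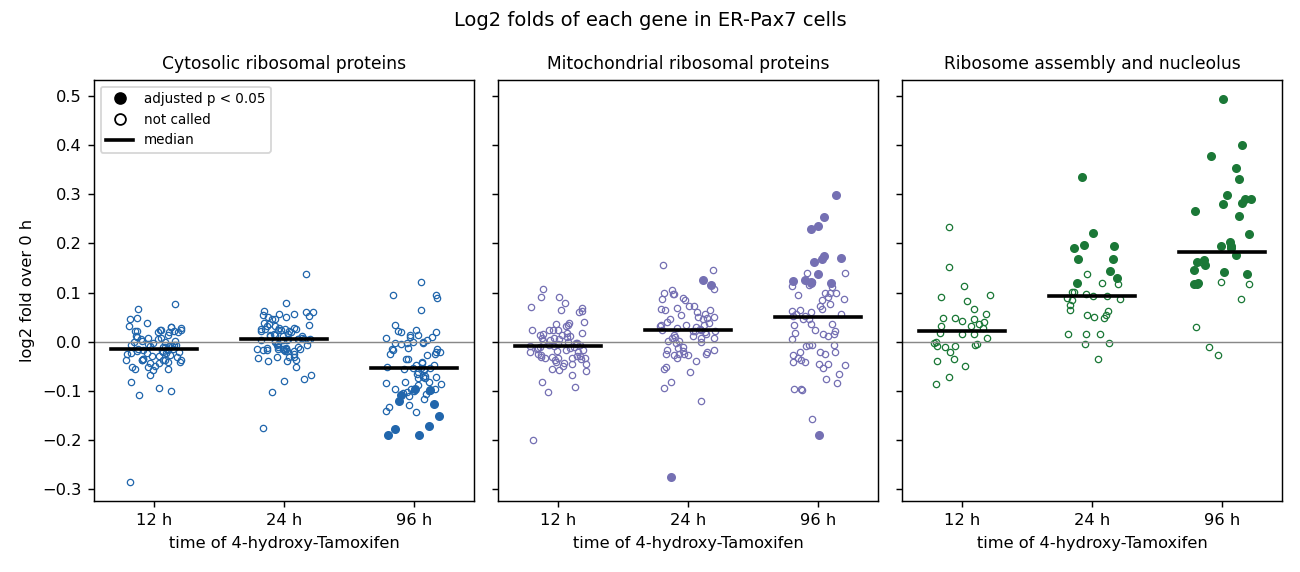
Log2 fold over 0 h of each tested gene at 12, 24 and 96 h of 4-hydroxy-Tamoxifen, for the cytosolic ribosomal proteins, the mitochondrial ribosomal proteins and genes of ribosome assembly; filled points passed a limma adjusted p of 0.05 and bars are medians. At 96 h the medians are -0.05, 0.05 and 0.18.

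On the other side, Rps27l, a copy of Rps27 that is induced by p53, had the highest log2 fold at 96 h. It had 951, 901 and 905 scaled reads at 0 h, 899.9, 818 and 946 at 12 h, 979.5, 902 and 980.1 at 24 h, and 979, 975 and 1047 at 96 h. Its 96 h libraries were all above those of 0 h, with a log2 fold of 0.12 (SE 0.05, limma adjusted p = 0.0569), which passed the test under scaling by library totals or median of ratios, in DESeq2, with the replicate block, in a fit of these times alone and without replicate 1 of 0 h. Then came Rps16 with 0.10, Rpl14 with 0.09, Rps13 with 0.09, Rplp1 with 0.06 and Rpl10 with 0.03, none of which passed. The stalk genes had log2 folds of 0.06 (Rplp1), -0.02 (Rplp0) and -0.02 (Rplp2), and Rpsa one of -0.05, none past the test. The balance of Rpl22l1 over Rpl22, as a log2 ratio of reads, was 0.45 ± 0.05 at 96 h and 0.31 ± 0.07 at 0 h (SD, n = 3 each), with 0.28 ± 0.12 at 12 h and 0.33 ± 0.04 at 24 h. All 96 h values lay above all 0 h values, and 3 against 3 libraries cannot give an exact two-sided permutation p below 0.1.

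Against 24 h, 7 members fell at 96 h and none rose, where 6.54% of all genes tested were called lower and 6.16% higher; among them were Rps14, Rpl5, Rpl22, Rpl15, Rpl7a and Rps15, by 0.11 to 0.18. Leaving out 1 library left 1 to 6 calls. The count was 1 without replicate 3 of 24 h or replicate 2 of 96 h, and 2 without replicate 1 of either time. A limma F test over all 4 times called 7 members (8.75%), where 30.3% of genes tested passed, among them Rpl15, Rpl22, Rps14, Rpl5, Rpl7a and Rps27l. Between 0 and 96 h, 11 members of the authors' deposited table had an FDR under 0.05, all with a negative log2 fold, of 2784 such genes among the 24063 in all, and none did between 0 h and 12 or 24 h.

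Genes of ribosome assembly rose at 96 h. Of 34, 27 rose (79.4%) and none fell, where 16.3% of all genes tested were called higher, with a median log2 fold of 0.18, and 10 had risen by 24 h, with a median of 0.09 (6 without replicate 1 of 24 h). Polr1a and Polr1b, the large subunits of RNA polymerase I, rose by 0.40 (SE 0.04, limma adjusted p = 6.37e-08) and 0.38 (SE 0.04). Rrp12 and Utp15, which process the ribosomal RNA precursor, rose by 0.33 and 0.30. The count at 96 h stayed between 23 and 28 in the fits that left out a library of either time or changed the scaling, and was 29 with the replicate block. Their 96 h libraries lay above the 0 h libraries in 30 genes, where 22.7% of all genes tested did so, while 12 ribosomal protein genes had no overlap in the lower direction (background 23.2%) and 1 in the higher.

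Of 74 mitochondrial ribosomal proteins 14 rose (18.9%) and 1 fell, a share near the 16.3% of all genes called higher. Their median log2 fold was 0.05, and Mrps2 rose by 0.25 and Mrpl50 by 0.24. With a library left out, 7 to 18 rose. The count was 7 without replicate 3 of 96 h, and 8 without replicate 2 or 3 of 0 h or replicate 1 of 96 h. Of 17 elongation factors and other terminal oligopyrimidine mRNAs 1 fell, Eif3e by 0.13, and of 24 initiation factors 3 rose. Of the ribosomal proteins outside the symbol rule Gnb2l1 fell by 0.15. Of 8 small nucleolar RNA host genes, 2 rose, Snhg4 by 0.38 and Gas5 by 0.16, while Gas5 fell in Pax7 cells. The rise is in exon reads and the fall in gene-body FPKM, introns included, so these values are unlike measures. Among the regulators Mycn fell by 0.35, Ddit4, an inhibitor of mTOR, by 0.30 and Sp1 by 0.13, while Larp1 rose by 0.16. These are single genes, named by their adjusted p or known role, and describe no shift of the list.

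The comparisons of Pax7 with Neo cells and of 96 h with 0 h share no library. Of the 10 members that fell at 96 h, 9 also fell in Pax7 cells (90.0% of the 10, and 12.5% of the 72 that fell there), the exception being Rpl41. Since 90.0% of the tested members fell in Pax7 cells, that share is the one the set as a whole shows. Across 79 members the log2 folds had Pearson's r of 0.56 and Spearman's rho of 0.60, a description across genes. There were 63 members below 0 in both, 14 below 0 in Pax7 cells and above 0 at 96 h, and 2, Rps29 and Rpl10, above 0 in both.

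**Figure D5:**
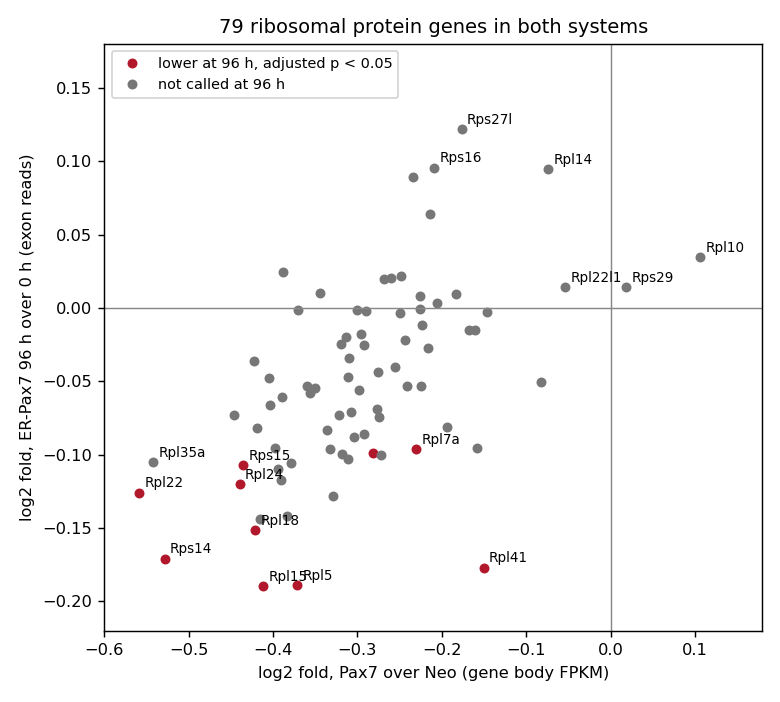
Log2 fold at 96 h over 0 h in ER-Pax7 cells (exon reads, vertical) against log2 fold in Pax7 over Neo cells (gene-body FPKM, horizontal) for 79 ribosomal protein genes; red genes fell at 96 h. Rpl22 and Rps14 are low on both axes, Rpl10 and Rps29 are above 0 on both, and Rpl41 is low at 96 h but not called in Pax7 cells.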

How the data were processed

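The members and gene lists were chosen with earlier results of these data known. Per the file headers, the authors counted reads with HOMER: for ER-Pax7, exon reads per gene that were scaled to a common library total (a signal, not raw counts), and for Neo and Pax7, FPKM over whole gene bodies, with totals set equal. Neither header names a strand option, so reads of a gene and its antisense partner cannot be told apart. TopHat, HOMER, edgeR and the builds mm10 and GRCm38 are named in the submitters' processing notes without versions. The authors' deposited log2 fold changes and p-values (FDR) were used only where their table is named.

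Each library was divided by its TMM factor, from edgeR 4.0.16, and values were tested as log2(value + pseudocount), 1 for scaled reads and 0.1 for FPKM, with limma 3.58.1 in R 4.3.3, with a trend. Fold changes are on that scale, which understates changes of low genes. Genes needed at least 1 scaled read in 3 ER-Pax7 libraries, or 0.1 FPKM in 2 of the others. All 12 ER-Pax7 libraries entered 1 fit. P-values were adjusted by Benjamini-Hochberg over all genes tested, with a threshold of 0.05, and each table was tested on its own. Scaled reads gave whole reads in 100% of low values (tolerance 0.1 read), and edgeR and DESeq2 1.42.0 were run on these as alternatives. The limit of 3 reads for a count of 0 covers counting error only. The fits were tested on simulated data. Named members were the 6 highest and 6 lowest log2 folds of each comparison with Neo or 0 h, those beyond 3 scaled median absolute deviations, the gene copies, the stalk genes and Rpsa. Rps6, Rps19, Rpl11, Rpl7a, Rps26 and Rps15a were added after their values were seen. Of companion lists, up to 4 genes with the smallest adjusted p were named, and Gas5, Larp1, Ddit4 and others for their known roles. Alternatives were other scaling, pseudocounts, no filter, a replicate block, each library left out and count tests. A few genes are not reported here by name.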

Additional observations from a re-analysis of the deposited data

Results flagged for a closer look

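Rps27l stood out among the 14 members with a log2 fold below 0 in Pax7 cells and above 0 at 96 h. It was the only member whose groups did not overlap, in opposite directions, in both systems. Its log2 fold at 96 h was 0.12, with all 3 libraries at 96 h above those at 0 h, and in Pax7 against Neo cells it was -0.18, with both Pax7 libraries below both Neo libraries. The value at 96 h is in exon reads and that in Pax7 cells in gene-body FPKM, introns included, so these are unlike measures. The difference between the systems was not tested, and the first value did not pass its own test (limma adjusted p = 0.0569).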

How the results depend on the processing

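In Pax7 against Neo cells the fall of the members kept its direction under every setting run, and its count depended on the libraries: 72 were called lower, 26 to 65 when a library was left out, 65 with the replicate block and 56 with library totals. Members called higher were 2 with library totals and 1 with a pseudocount of 0.01 FPKM, against 0. The median log2 fold of -0.30 was -0.23 with library totals and -0.33 to -0.28 with a library left out. Library totals also moved the share of calls that were higher, over all genes tested, to 67.7%, against 50.5%. At 24 h against 0 h, 1 member was called lower with the replicate block, and 0 to 1 were called higher with a library left out. At 96 h against 0 h, 10 were called lower, 20 with the replicate block, 16 in a fit of these times alone and 4 to 12 with a library left out. Called higher there were 3 with the replicate block, 1 each with library totals, median-of-ratios factors, DESeq2 on recovered reads and the times alone, and 0 to 1 with a library left out. At 96 h against 24 h, 7 were called lower, 14 with the replicate block, 4 without the filter and 1 to 6 with a library left out. The cause of these shifts was not tested, beyond the fewer libraries in the fits that left one out. All other counts and medians of the members, 248 values, stayed on the same side of the threshold or within the spread; among single genes and companion lists, 17 values moved up past the threshold or by over 1.5 times and 73 moved down. Over all genes tested, same-numbered ER-Pax7 libraries had correlations of their deviations of -0.08 to 0.14, with 1 of 18 pairs over 0.1. Those of Pax7 and Neo were 0.04. Correlations over all genes cannot decide whether the members shared an effect of replicate number. Replicate 2 had the lowest median of the members at each ER-Pax7 time: -0.06, -0.12, -0.06 and -0.07 at 0, 12, 24 and 96 h. Pairing of the members was not tested, and the block counts alone are no evidence of it. The companion list alternatives were chosen after seeing the data. With 2 libraries a group and depth unknown, the Pax7 and Neo counts rest on the spread shared across genes.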
